A study of Homo sapiens with 4 samples.

Results

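The cytidines described here lie in genes whose annotated span, from gene start to gene end, is at least 200 kb. They were found by keeping each pair of a position and a gene identifier once in the deposited tables and then retaining genes of 200000 bases or more. The rule left 885 positions of 17862 listed in either table, in 301 genes of 6119. The retained genes spanned 200 to 1285 kb, with a median of 278 kb. RefSeq annotates 290 of them as protein coding and 1 as a long non-coding RNA, and for 10 identifiers no symbol could be matched.

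The samples were LX-2, an established line of human hepatic stellate cells labelled wild type. A pair of libraries came from cells given human recombinant TGF-β1 at 5 ng/ml for 24 h, and a pair from untreated cells, called control. RNA was polyadenylated and taken through sodium borohydride (NaBH4) sequencing, and the study asked how N4-acetylcytidine (ac4C) changed after TGF-β1. The labels name no library made without NaBH4 or lacking the acetyltransferase NAT10, so a listed cytidine is a mismatch site whose acetylation was not checked. The labels call the 2 libraries of a group biological replicates, but each group was deposited as 1 table. No value below therefore has a replicate error, no difference between the groups was tested, and intervals are 95% Wilson intervals that cover counting error only.

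N4-acetylcytidine is an acetylated cytidine that NAT10 writes into ribosomal and transfer RNA and, in some reports, messenger RNA. NaBH4 reduces it to a base that reverse transcriptase can misread, which leaves a mismatch at that cytidine. The span of a long human gene is mostly intron, and splicing joins exons that can lie far apart, so distance along the gene is not distance along the mature transcript. Many such genes encode large proteins of the cytoskeleton, of cell adhesion and of the extracellular matrix, and their transcription takes longer than that of short genes. TGF-β1 is a growth factor that drives stellate cells towards the matrix-producing myofibroblast.

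Promoter windows of RefSeq (assembly GRCh38.p14) reached a few of these cytidines, and 4 are shown because they cover each way a cytidine of a long gene appeared: listed after TGF-β1 only, in control only, or in both tables. The genes RSU1, CDYL and APP themselves were each in both tables. Each line gives 30 bases 5′ to 3′ on the transcript strand, and the capital letter marks the listed cytidine.
RSU1, 5′UTR, chr10:16817379-16817408, minus strand: tcagtgccggtgttgCagggagtgagggca
CDYL, coding, chr6:4892180-4892209, plus strand: gaaactggaccccgtCgagcagggtcagga
CDYL, coding, chr6:4892357-4892386, plus strand: aggcttagctgttaaCgggaaaggtgagtg
APP, 5′UTR, chr21:26170739-26170768, minus strand: cagtttcctcggcagCggtaggcgagagca
The RSU1 cytidine, 0.07 kb from the start of a gene for a Ras suppressor protein of integrin adhesions, was listed at 12.9% after TGF-β1 and was not listed in control. Both CDYL cytidines lay 186 kb from the start of that gene, inside the promoter window of another locus, LOC105374897. In CDYL, which encodes a chromodomain corepressor, the first cytidine shown was listed at 4.45% after TGF-β1 and not in control. The other CDYL cytidine had 11.6% after TGF-β1 and 6.09% in control. The cytidine of APP, the gene of the amyloid precursor protein, was not listed after TGF-β1 and had 1.85% in control. Each percentage is the deposited mismatch difference, a fraction whose exact subtraction is not stated. Of all listed positions that fell inside such windows, 216 after TGF-β1 and 157 in control, each had C on the transcript strand.

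Long genes held fewer listed positions after TGF-β1 than in control, while the lists as a whole ran the other way. They accounted for 395 of 11735 positions after TGF-β1 (3.37%, 3.05 to 3.71) and for 580 of 8112 in control (7.15%, 6.61 to 7.73). Counted once for every gene that contains them, long-gene positions numbered 396 after TGF-β1 and 581 in control, a ratio of 0.682 (0.600 to 0.774). Genes under 200 kb had 11688 after TGF-β1 and 7721 in control, a ratio of 1.51 (1.47 to 1.56). With as many TGF-β1 positions as control had, taken by lowest p, the long-gene ratio was 0.453. Shortening the list lowers every such ratio, and that over all genes went from 1.46 to 1.00. A cytidine missing from a table carries no value there, and depth is unknown, so fewer reads, fewer transcripts, fewer cells with the transcript and less modification cannot be told apart.

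The ratio was below 1 in every class of long genes, and lowest in point value in the longest. Genes of 200 to 300 kb had 287 positions after TGF-β1 and 361 in control, a ratio of 0.795 (0.681 to 0.928). Those of 300 to 500 kb had 84 after TGF-β1 and 168 in control, a ratio of 0.5 (0.385 to 0.649). The 31 genes of 500 kb and more had 25 after TGF-β1 and 52 in control, a ratio of 0.481 (0.300 to 0.771), an interval that overlaps those of both shorter classes. The 200 kb limit marked no step between the classes on either side of it. Genes of 100 to 200 kb already had a ratio of 0.767 (0.705 to 0.835), with 949 positions after TGF-β1 and 1237 in control. Only below 100 kb was the ratio above 1, reaching 2.01 (1.91 to 2.12) at 5 to 20 kb, with 3961 positions after TGF-β1 and 1969 in control. Just inside the limit, 7 genes of 200 to 205 kb had 20 positions after TGF-β1 and 24 in control, with more in 1 gene and fewer in 6. COL5A1 alone held 16 of the 20 and 8 of the 24. Just outside it, 13 genes of 195 to 200 kb had 20 after TGF-β1 and 19 in control, with more in 7 genes and fewer in 6. These genes are too few to show or exclude a step at the limit itself.

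**Figure D1:**
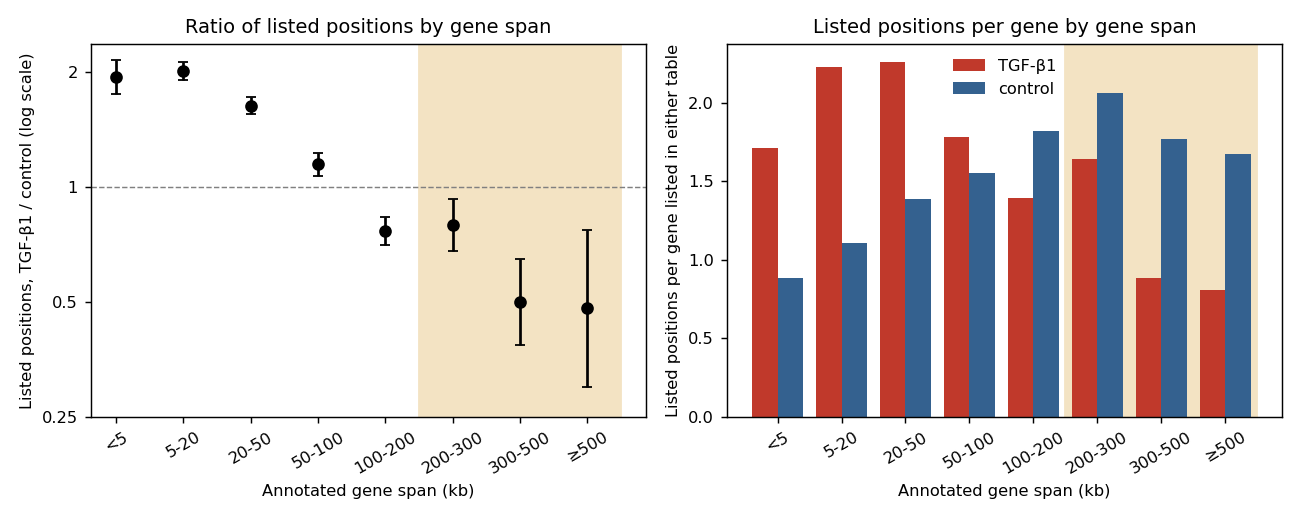
Ratio of listed positions, TGF-β1 over control, on a log scale with 95% intervals for counting error (left), and listed positions per gene in each table (right), by annotated gene span in kb. The shaded classes are the genes of 200 kb and more, where all 3 ratios lie between 0.481 and 0.795, while genes of 5 to 20 kb reach 2.01.

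The ratio was similar when transcripts were measured in place of genes. A listed transcript of at least 200 kb held 347 of the positions after TGF-β1 and 516 in control, a ratio of 0.672 (0.587 to 0.770). For positions with no listed transcript of that span the counts were 49 after TGF-β1 and 65 in control, a ratio of 0.754 (0.521 to 1.09), too few to place above or below the long transcripts. For a comparison with the genome as a whole, coding genes were classed by their span in RefSeq. That differs from the deposited span used elsewhere, by which 140 long genes were listed after TGF-β1 and 266 in control. By RefSeq span, 117 of the 1399 coding genes of 200 kb and more were listed after TGF-β1 (8.36%, 7.02 to 9.93), and 242 in control (17.3%, 15.4 to 19.4). Among shorter coding genes 21.7% were listed after TGF-β1 and 20.8% in control, an average over classes that differed in direction. In the class of 100 to 200 kb 16% were listed after TGF-β1 and 26.1% in control, and in that of 5 to 20 kb 25% after TGF-β1 and 19.6% in control. Among the 315 coding genes of 500 kb and more, 3.49% were listed after TGF-β1 and 9.21% in control.

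In most long genes the number of positions was lower after TGF-β1. Of the 301, 194 had fewer (64.5%, 58.9 to 69.6), beside 35.3% over all listed genes. A larger number in TGF-β1 than in control was found in 80 long genes (26.6%), beside 51.2% over all genes, and 27 (8.97%) had equal numbers, beside 13.6%. The share of long genes with more was 16.7% with the TGF-β1 list shortened in that way and 42.7% at a mismatch difference of 10% or more. The same shares over all genes were not computed, but the all-gene ratio of positions moved too, to 1.00 and 2.17. Presence in the full lists also leaned towards control. Listed after TGF-β1 only were 35 genes (11.6%, background 28.3%), listed in both tables were 105 (34.9%, background 44.4%), and listed in control only were 161 (53.5%, background 27.3%). The shortened list left 7.32% after TGF-β1 only, with no all-gene share computed at that setting. Most single-table long genes had 1 cytidine, 30 of the 35 after TGF-β1 and 96 of the 161 in control. Having mostly 1 position was general to single-table genes. Beside all listed genes, the share with 1 was larger in TGF-β1-only long genes and smaller in control-only long genes. Over all listed genes, 1053 of 1732 after TGF-β1 only and 1183 of 1670 in control only had 1 position. At least 3 positions were held by 3 of the TGF-β1-only long genes, ADK, EPB41L2 and KIRREL3, and by 25 of the control-only long genes. Over all listed genes, 302 of the 1732 and 156 of the 1670 held at least 3.

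Genes listed in both tables did not show a lower count. Those 105 genes held 352 positions after TGF-β1 and 313 in control, a ratio of 1.12 (0.966 to 1.31), below the 1.57 (1.51 to 1.62) of shorter genes listed in both. Without COL4A2, chosen after its values were seen, the counts were 326 after TGF-β1 and 304 in control, a ratio of 1.07 (0.917 to 1.25). Being listed in both tables selects genes with many positions, so this ratio describes them and does not stand for long genes in general. Positions were also more concentrated after TGF-β1, where they lay in 140 genes, beside 266 in control. A top-5 share depends on that number of genes, and the same share over all genes was not computed. The 5 genes with most positions held 97 of 396 after TGF-β1 (24.5%, 20.5 to 29.0), and in control the 5 with most there held 68 of 581 (11.7%, 9.34 to 14.6).

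Collagen genes were among the long genes that gained most. COL4A2 (ENSG00000134871, chr13:110305812-110513209 in hg38, plus strand) encodes the alpha-2 chain of type IV collagen, the network collagen of basement membranes, and had 26 positions after TGF-β1 and 9 in control. Of the 9 control positions 7 were listed again after TGF-β1, so the gene kept most of its control sites and added others. Its highest shared cytidine, 145 kb from the gene start, had 26.1% after TGF-β1 and 13.6% in control. Another at 198 kb had 9.03% after TGF-β1 and 2.82% in control, whereas one at 124 kb had 1.53% after TGF-β1 and 2.37% in control. COL5A1 (chr9:134641803-134844843), the alpha-1 chain of the fibril-forming type V collagen, had 16 after TGF-β1 and 8 in control, 3 of them shared.

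Septin, membrane and kinase genes were among the other gains. SEPTIN9 (chr17:77280569-77500596), a filament-forming GTP-binding protein, had 15 positions after TGF-β1 and 6 in control. BASP1, a protein attached to the inner face of the plasma membrane, had 10 after TGF-β1 and 3 in control. Of the BASP1 positions after TGF-β1, 9 lay in the last of 5 equal parts of its span, where 2 of its 3 control positions lay. MAD1L1, a spindle checkpoint protein, had 9 after TGF-β1 and 4 in control. MAST2, a microtubule-associated kinase, had 8 after TGF-β1 and 4 in control, and MARK4, a kinase of microtubule-associated proteins, had 6 after TGF-β1 and 2 in control. VAV2, an exchange factor for small GTPases, had 5 after TGF-β1 and 2 in control. Of the genes with positions after TGF-β1 and none in control, 3 had 3 positions or more. ADK, which encodes adenosine kinase, had 4 positions of 2.98 to 9.40%. EPB41L2, a membrane-skeleton protein of the band 4.1 family, had 3 of 2.22 to 9.90%, and KIRREL3, an immunoglobulin-family adhesion protein, had 3 of 4.12 to 10.8%. ACBD6, an acyl-CoA-binding protein, had 4 after TGF-β1 and 1 in control, as large a gain as EPB41L2, KIRREL3 and VAV2.

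Several of the largest losses were in genes that act on actin and myosin. TRIO (ENSG00000038382, chr5:14143342-14532128, plus strand), an exchange factor that switches on small GTPases, had 5 positions after TGF-β1 and 18 in control. The 3 TRIO cytidines listed in both were higher after TGF-β1: 9.17% after TGF-β1 and 3.0% in control at 216 kb, 10.9% after TGF-β1 and 4.47% in control at 225 kb, and 2.26% after TGF-β1 and 1.03% in control at 354 kb. TRIO thus had fewer listed cytidines and higher values at those that remained. MYLK (ENSG00000065534, chr3:123610049-123884332, minus strand), the kinase that phosphorylates the myosin light chain, had 0 after TGF-β1 and 11 in control. The 11 control values of MYLK ranged from 1.2 to 23.3%, between 150 and 266 kb from the gene start. PREX1, another such exchange factor, had 3 after TGF-β1 and 8 in control, and MYO1E, a class I myosin, had 0 after TGF-β1 and 5 in control. LIMCH1, an activator of non-muscle myosin, had 0 after TGF-β1 and 5 in control.

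Other losses were spread over chromatin, matrix, kinase and translation genes. ANKRD11 (chr16:89267630-89490561), an ankyrin-repeat chromatin regulator, had 6 positions after TGF-β1 and 15 in control, all in the last of 5 equal parts of the gene and none at the same cytidine. FBN2, the microfibril protein fibrillin-2, had 0 after TGF-β1 and 5 in control, and ADAMTS12, a secreted metalloprotease, had 1 after TGF-β1 and 5 in control. TAOK3, a stress-activated kinase, had 1 after TGF-β1 and 5 in control. EIF4G3, a scaffold of translation initiation, ALCAM, a cell adhesion molecule, and SIPA1L3, of a family of RAP GTPase-activating proteins, each had 0 after TGF-β1 and 4 in control. MICAL3, with 3 after TGF-β1 and 7 in control, had as large a loss as these. A count alone hides turnover of sites. SPTBN1, the beta-spectrin of non-erythroid cells, had near-equal numbers, 12 after TGF-β1 and 11 in control, yet only 1 cytidine was in both tables, at 17.4% after TGF-β1 and 9.83% in control.

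**Figure D2:**
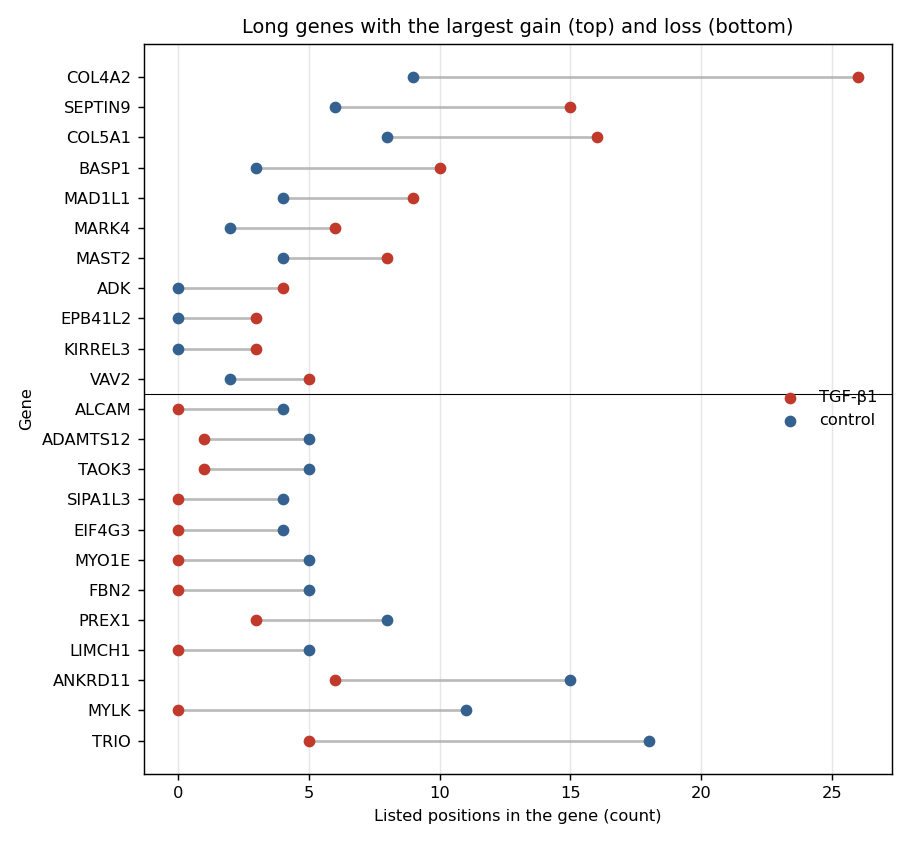
Number of listed positions after TGF-β1 (red) and in control (blue) in 11 of the 12 long genes with the largest gain (top) and the 12 with the largest loss (bottom), ties taken by gene identifier, with a line joining the points of each gene. COL4A2 and COL5A1 reach 26 and 16 positions after TGF-β1, and TRIO and ANKRD11 reach 18 and 15 in control.

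**Figure D3:**
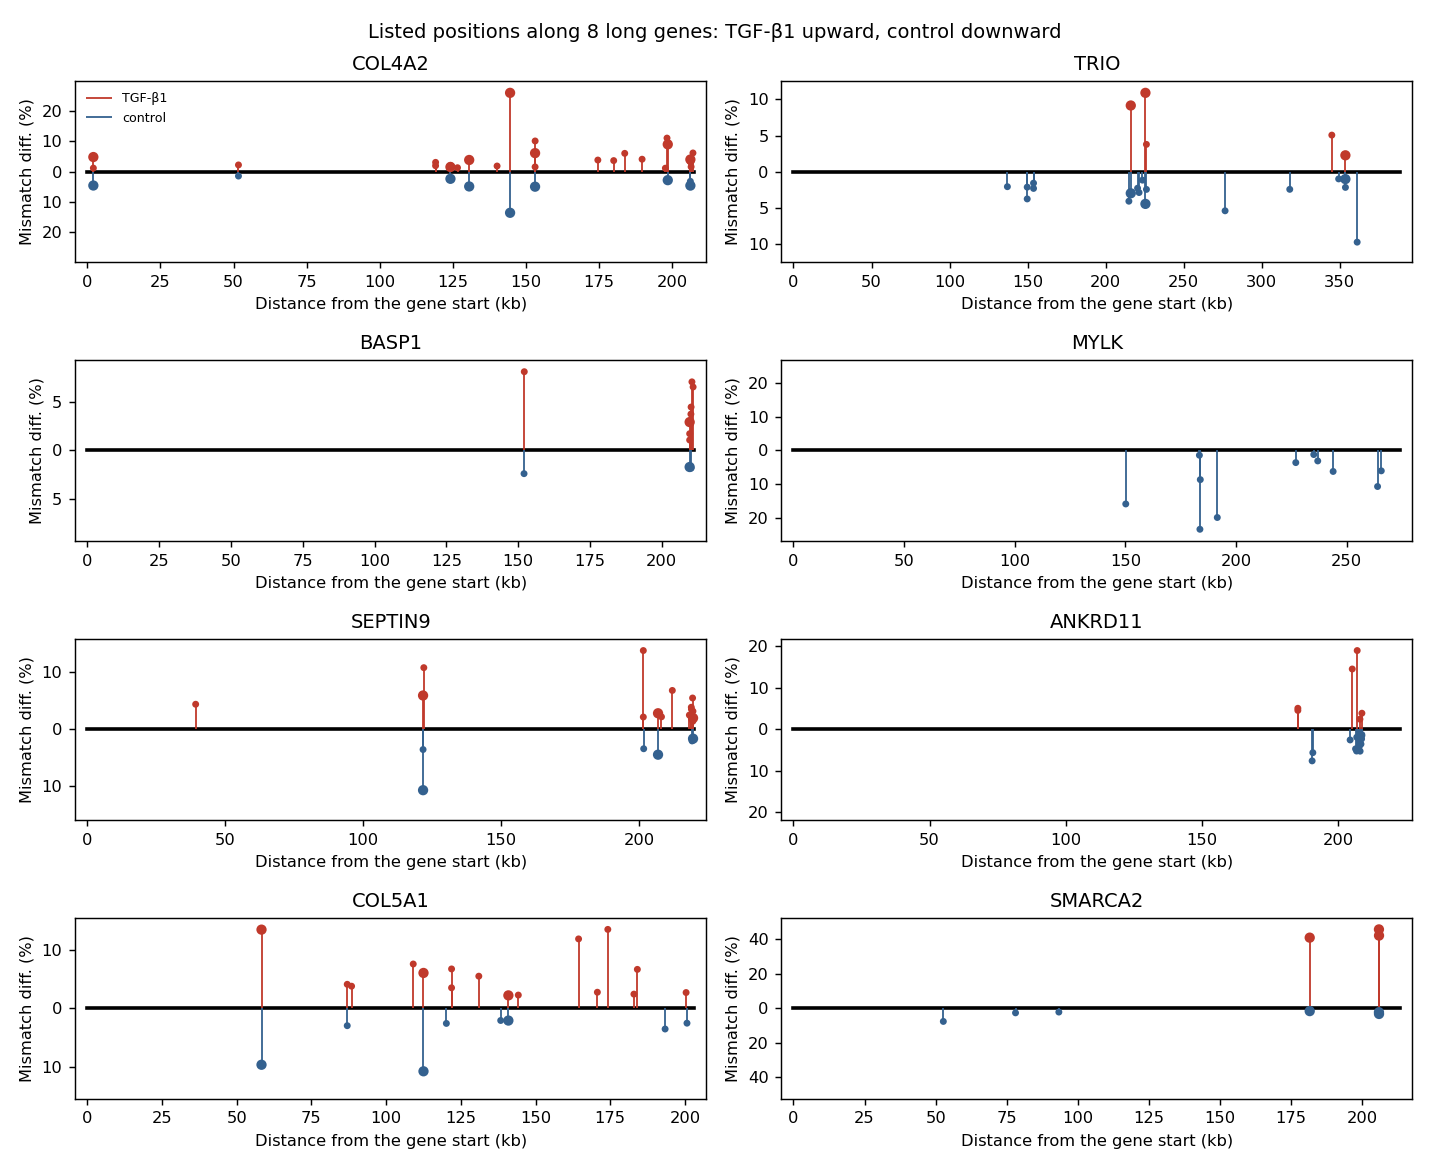
Listed positions along 8 long genes, with distance from the gene start in kb on the horizontal axis and mismatch difference in percent on the vertical axis, TGF-β1 upward in red and control downward in blue. Larger dots are cytidines listed in both tables: 7 in COL4A2, 3 in COL5A1, 3 in SEPTIN9, 1 in BASP1, 3 in TRIO and 3 in SMARCA2, with none in MYLK or ANKRD11.

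Gene lists by role, compiled for the tissue and for large proteins, held 116 of the 301 long genes. Beside the median change of -1 position over all long genes and 1 over all listed genes, 8 of the 10 lists had a median of -1, that of TGF-β, BMP, WNT and Hippo signalling had -2, and that of RNA binding had -1.5. The lists differed more in their sums, which single genes can set. Each list below stands beside all long genes, of which 64.5% had fewer positions and 26.6% more, at a ratio of 0.682. Over all listed genes 35.3% had fewer. Long genes of actin filaments, adhesion and myosin had 22 positions after TGF-β1 and 54 in control (ratio 0.407, 0.249 to 0.666). They had more in 6 and fewer in 14 of 20 genes, a share with fewer near that of all long genes. In this list CTNNA1, the alpha-catenin that links cadherins to actin, had 6 after TGF-β1 and 5 in control. MYO10, an unconventional myosin of filopodia, had 6 after TGF-β1 and 4 in control. CALD1, the actin-binding protein caldesmon, had 5 after TGF-β1 and 3 in control.

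Exchange factors and GTPase-activating proteins that control small GTPases of the actin cytoskeleton had 15 positions after TGF-β1 and 43 in control (ratio 0.349, 0.195 to 0.623), with more in 1, fewer in 9 and equal numbers in 1 of 11 genes. TRIO alone held 18 of the 43. The share with fewer over all long genes was 64.5%, beside which this list and the next ones stand. Kinases, phosphatases and their anchors had 11 after TGF-β1 and 28 in control (ratio 0.393, 0.198 to 0.779), with fewer in 11 of 13 genes. The exception with more was MAST2. Membrane traffic and lipid transport had 6 after TGF-β1 and 22 in control (ratio 0.273, 0.114 to 0.654), with fewer in 12 of 14. In that list ASAP1, a GTPase-activating protein for ARF, had 1 after TGF-β1 and 4 in control. Ubiquitin and protein turnover had 1 after TGF-β1 and 13 in control, with fewer in 8 of 9. HERC1, a very large ubiquitin ligase, had 0 after TGF-β1 and 3 in control, and the single position after TGF-β1 lay in ATG5, an autophagy gene. Lower sums were not particular to long genes of the lists. Genes of the ubiquitin list under 200 kb had 25 after TGF-β1 and 52 in control. Of the 10 lists, genes under 200 kb had more after TGF-β1 only in the kinase list, 61 and 50, and the matrix list, 88 and 59.

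The matrix list had the highest ratio of the lists described, although most of its genes did not have more positions. Extracellular matrix genes and receptors had 50 positions after TGF-β1 and 38 in control (ratio 1.32, 0.866 to 2.0), with more in 4, fewer in 6 and equal numbers in 1 of 11 genes, and COL4A2 and COL5A1 held 42 of the 50. That interval spans 1. Chromatin and transcription genes had more positions in 5 and fewer in 9 of 14, close to the 64.5% with fewer over all long genes. Their summed positions had a ratio of 1.125 (0.737 to 1.72), an interval that also spans 1. Among them CUX1, a homeodomain transcription factor, had 7 after TGF-β1 and 5 in control. The spectrin, dystrophin and spectraplakin linkers had 22 after TGF-β1 and 28 in control (ratio 0.786, 0.453 to 1.36), with MACF1, which links microtubules to actin, at 2 after TGF-β1 and 5 in control. RNA binding and translation genes had 6 after TGF-β1 and 19 in control (ratio 0.316, 0.130 to 0.768), where SMG6, an endonuclease of nonsense-mediated decay, had 1 after TGF-β1 and 4 in control. The signalling list had 4 long genes with 1 position after TGF-β1 and 7 in control, among them TNIK, a kinase of WNT signalling, with 0 after TGF-β1 and 3 in control.

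Listed positions of long genes lay towards the 3′ end in both groups. Each gene's span was divided into 5 equal parts in the direction of transcription. The last of these held 221 of 396 positions after TGF-β1 (55.8%) and 306 of 581 in control (52.7%), beside 35.5% after TGF-β1 and 34.6% in control for genes under 200 kb. That lean was not particular to long genes. In genes of 100 to 200 kb the last part held 48.4% after TGF-β1 and 42.2% in control. It held 61.0% after TGF-β1 and 58.7% in control at 200 to 300 kb, but 40.5% and 42.9% at 300 to 500 kb. The median place was 83.3% of the way along the gene after TGF-β1 and 81.5% in control, with quartiles of 55.4 and 94.9% after TGF-β1 and 55.3 and 94.3% in control. Measured from the ends, the median position was 201 kb from the start and 42.6 kb from the end after TGF-β1, and 208 kb from the start and 53.0 kb from the end in control.

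As shares of each group's positions, the groups differed more at the start and in the middle of the span than at its end. The first part held 57 positions after TGF-β1 (14.4%) and 52 in control (8.95%), a ratio of 1.10 (0.754 to 1.59). That interval spans 1, so by count the groups were close at the start, and the larger share there goes with lower counts elsewhere. The middle part held 37 after TGF-β1 (9.34%) and 78 in control (13.4%), a ratio of 0.474 (0.322 to 0.700), and the last part had a ratio of 0.722 (0.608 to 0.858). Positions more than 100 kb from both gene ends numbered 49 after TGF-β1 (12.4%) and 123 in control (21.2%). That distance depends on span, and control had a larger share of its positions in genes of 300 kb and more. Within genes of 200 to 300 kb the shares were 6.97% after TGF-β1 and 9.97% in control. In genes of 300 kb and more they were 26.6% and 39.5%, and the intervals overlapped in both classes. Within 10 kb of the start there were 33 after TGF-β1 (8.33%) and 28 in control (4.82%).

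This pattern of shares was clearest in genes of 300 kb and more. Their first part held 28 of 109 positions after TGF-β1 (25.7%, 18.4 to 34.6) and 24 of 220 in control (10.9%, 7.44 to 15.7). MAD1L1 supplied 6 of the 28. Without it, a check chosen after its values were seen, the shares were 22 of 100 after TGF-β1 (22%, 15 to 31.1) and 21 of 216 in control (9.72%, 6.45 to 14.4). With MAD1L1 included, the positions of that first part came from 19 genes after TGF-β1 and 20 in control. The middle part of these genes held 7 after TGF-β1 and 34 in control, a ratio of 0.206 (0.0932 to 0.455). In their last part the shares were close, 42.2% after TGF-β1 and 42.7% in control. In genes of 200 to 300 kb the last part held 61.0% after TGF-β1 and 58.7% in control.

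**Figure D4:**
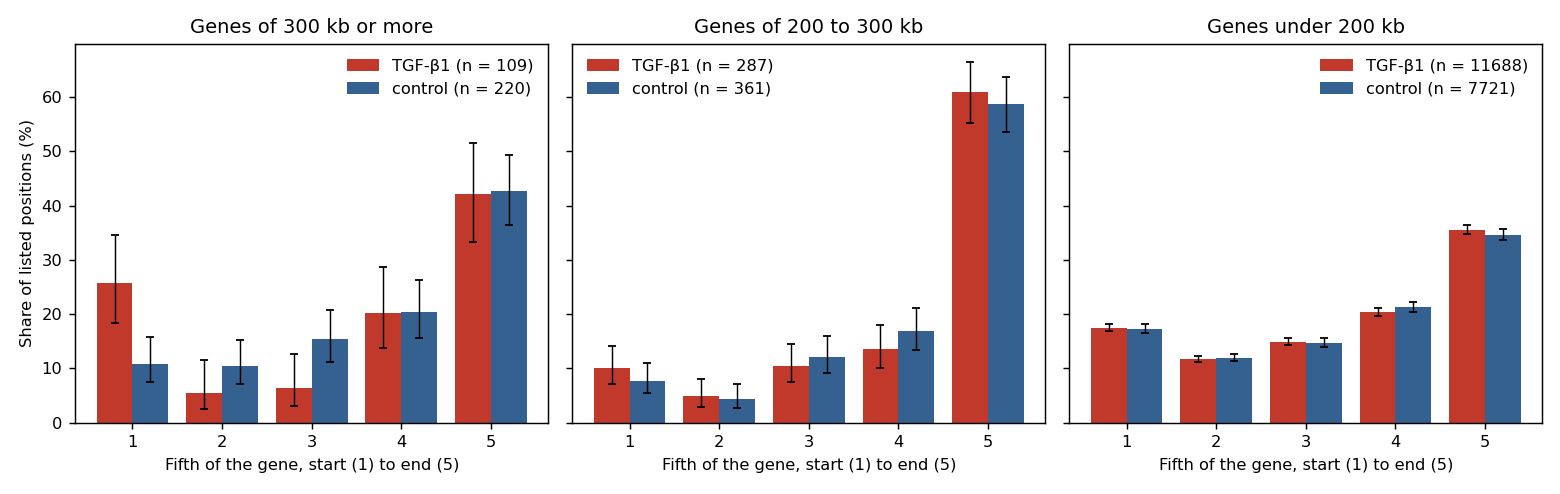
Share of listed positions in each of 5 equal parts of the gene span, from start (1) to end (5), after TGF-β1 (red) and in control (blue), with 95% Wilson intervals, for genes of 300 kb or more, of 200 to 300 kb and under 200 kb. In the genes of 300 kb or more the first part holds 25.7% after TGF-β1 and 10.9% in control, while the last holds 42.2% after TGF-β1 and 42.7% in control.

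Within genes listed in both tables the place of the positions did not move one way. The gene's median place was nearer the end after TGF-β1 in 48 of 105 genes, nearer the start in 47 and equal in 10, with a median shift of 0% of the gene and quartiles of -5.62 and 4.35%. The genes listed in 1 table only differed more from each other. In TGF-β1-only genes 17 of 44 positions (38.6%) lay in the first part and 15 (34.1%) in the last. In control-only genes 23 of 268 (8.58%) lay in the first part and 129 (48.1%) in the last. The 44 positions are few, and 10 of them came from ADK, EPB41L2 and KIRREL3.

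By transcript segment, the coding sequence held most positions in both groups. It had 325 after TGF-β1 (82.1%) and 476 in control (81.9%), a ratio of 0.683 (0.593 to 0.786). The 3′UTR had 34 after TGF-β1 and 64 in control, a ratio of 0.531 (0.352 to 0.803), and the 5′UTR had 33 after TGF-β1 and 40 in control, a ratio of 0.825 (0.522 to 1.30). Those intervals overlap, so the segments could not be ranked. In genes under 200 kb the ratios were 1.55 in coding sequence, 1.44 in the 3′UTR and 1.5 in the 5′UTR. Neighbouring cytidines were listed together more often after TGF-β1: another position of the same gene lay within 10 bases for 58 (14.6%, 11.5 to 18.5) after TGF-β1 and for 46 (7.92%, 5.99 to 10.4) in control. Over all genes the shares within 10 bases were 14.1% after TGF-β1 and 10.7% in control. Within 1000 bases the long-gene counts were 161 after TGF-β1 (40.7%) and 144 in control (24.8%), beside 52.4% after TGF-β1 and 32.9% in control over all genes. Such neighbours may share reads and are not independent.

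Although fewer, the listed positions of long genes had higher values after TGF-β1. The median mismatch difference was 5.07% (quartiles 3.17 and 9.23) after TGF-β1 and 4.47% (2.78 and 7.79) in control. A value of 10% or more was listed at 89 positions after TGF-β1 (22.5%, 18.6 to 26.8) and at 96 in control (16.5%, 13.7 to 19.8), beside 18.4% after TGF-β1 and 12.3% in control over all genes. In the 5′UTR the median was 6.89% after TGF-β1 and 4.27% in control, and in the coding sequence 5.03% after TGF-β1 and 4.40% in control. In the 3′UTR it was the other way round, 5.78% after TGF-β1 and 6.04% in control. These medians are over different sites in each table.

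At the 90 cytidines of long genes listed in both tables the comparison is of the same sites. They were 22.7% of the TGF-β1 positions and 15.5% of the control positions in long genes, while over all genes the shares were 16.9% for TGF-β1 and 24.6% for control. The value was higher after TGF-β1 at 66 (73.3%, 63.4 to 81.4), beside 78.1% over all shared positions. The medians were 6.23% after TGF-β1 and 4.11% in control, and the median of the paired differences was 1.93 points, with quartiles of -0.0455 and 5.94 (1.71 points over all genes). In genes of 300 kb and more, which held 23 of the 90, that median was 4.81 points. At 15 of the 90 the value was higher by 10 points or more, beside 6.92% of shared positions over all genes, and at 29 by 5 points or more, beside 20.7%. It was lower by 5 points or more at 1, beside 1.28%, and by 10 points or more at 0, beside 0.0981%.

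The largest differences at shared cytidines lay in coding sequence, at both chromatin and lipid-transport genes. OSBPL9, which encodes an oxysterol-binding-protein relative, had a cytidine at chr1:51786600, 209 kb from the gene start, with 63.7% after TGF-β1 and 18.7% in control. SMARCA2, which encodes the BRM ATPase of chromatin remodelling complexes, had 3 shared cytidines. They had 45.7% after TGF-β1 and 2.33% in control at chr9:2186113, 42.1% after TGF-β1 and 3.35% in control 27 bases downstream, and 40.9% after TGF-β1 and 1.70% in control at chr9:2161774. SMARCA2 listed no other cytidine after TGF-β1, whereas control had a further 3 nearer the gene start, of 2.25 to 7.68%. STAG2, a cohesin subunit on the X chromosome, had 35.1% after TGF-β1 and 5.34% in control. JMJD1C, a protein of the histone demethylase family, had 32.0% after TGF-β1 and 3.13% in control, and of its 4 control cytidines that was the only one listed after TGF-β1.

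Other large differences were found in genes of the cell cortex, of endocytosis and of translation. PHLDB2, which anchors microtubules at the cell cortex, had 1 cytidine in each table and the same one, at 27.4% after TGF-β1 and 4.04% in control. SH3KBP1, an endocytic adaptor, had 22.7% after TGF-β1 and 6.75% in control at its shared site. CTIF, a factor of cap-binding-complex translation, had a 3′UTR cytidine with 36.1% after TGF-β1 and 21.6% in control. CDK19, a kinase of the Mediator complex, had a 5′UTR cytidine 0.923 kb from the gene start with 16.4% after TGF-β1 and 2.33% in control, its sole listed position in either table.

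Lower values at shared cytidines differed by less. COL5A1 had a shared cytidine with 6.01% after TGF-β1 and 10.8% in control, and SEPTIN9 a 5′UTR cytidine with 5.95% after TGF-β1 and 10.7% in control. MICAL3, a flavoprotein oxidase that acts on actin, had 2.10% after TGF-β1 and 4.57% in control at its shared site. COL5A1 and SEPTIN9 had more positions after TGF-β1, so the number of listed positions and the value at a given site did not always run the same way.

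**Figure D5:**
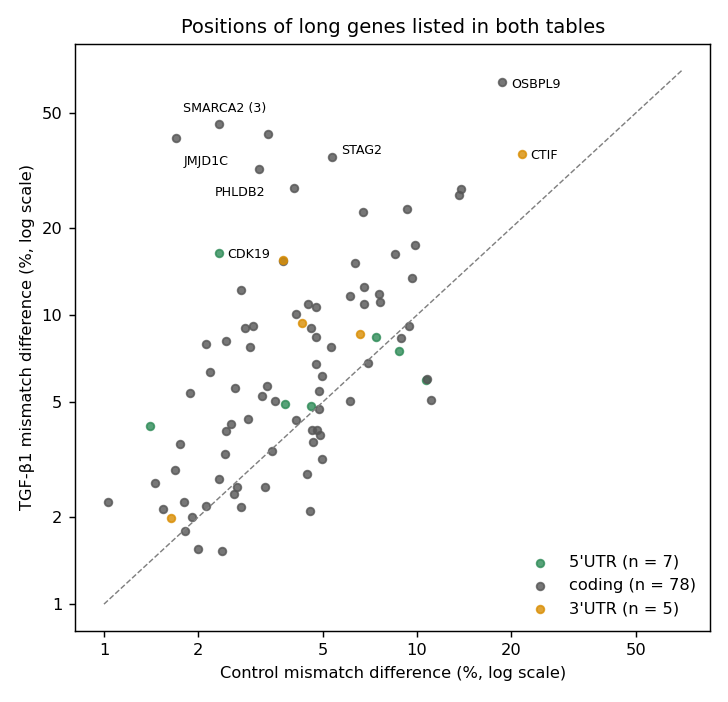
Mismatch difference after TGF-β1 (vertical) against control (horizontal), both in percent on log scales, at the 90 cytidines of long genes listed in both tables, coloured by transcript segment, with the dashed line of equal values. At 66 cytidines the value is higher after TGF-β1, and the farthest from the line of equal values are the 3 of SMARCA2, followed by those of JMJD1C and CDK19.

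High values listed in 1 table only were found in both groups. After TGF-β1, HIPK2, a nuclear kinase, had 50.4% and 39.6% at a pair of cytidines 61.3 kb from its start, with none of these listed in control. MACF1 had 47.7% and 40.6% at neighbouring cytidines 379 kb from its start, where its 5 control positions lay elsewhere. CDH4, a cadherin, had 35.9% in its 5′UTR 0.245 kb from the start, and MAD1L1 had 31.2% in a 5′UTR 164 kb from the start. JAK1, a cytokine-receptor kinase, had 1 position after TGF-β1 at 28.4% and none in control. In control, RERE, an atrophin-family corepressor, had 83.3% in its 3′UTR, the highest value of any long gene, and that cytidine was not listed after TGF-β1. The ion channel gene TRPC4 had 45.1% at its single control cytidine, the hedgehog-pathway factor GLI2 had 43.9%, and the ubiquitin ligase HERC2 had 35.6%, with none of these 3 genes listed after TGF-β1. With no reads in the tables, a high value cannot be told from one resting on few reads.

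The 8 longest genes each held at most 3 positions per table. TENM2, a teneurin adhesion protein of 1285 kb, had 0 after TGF-β1 and 3 in control, at 6.13 to 15.4% and more than 1269 kb from its start. RUNX1, a transcription factor gene of 1217 kb as annotated in the tables, had 1 after TGF-β1, 1124 kb from the start at 5.00%, and 0 in control. NRG1, a growth factor of the EGF family, had 0 after TGF-β1 and 1 in control. CDH13, a cadherin held by a lipid anchor, had 0 after TGF-β1 and 3 in control. ADAMTSL1, a secreted matrix protein, had 1 in each table at different sites, 27.1% after TGF-β1 and 4.50% in control. CAMTA1, a calmodulin-binding transcription activator, had 1 after TGF-β1 and 0 in control, NAV3, a microtubule-binding neuron navigator, had 0 after TGF-β1 and 1 in control, and PTPRM, a receptor phosphatase, had 0 after TGF-β1 and 3 in control.

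Markers of the cell type bear on the label only through which genes were listed, since the tables hold no expression levels. Of 9 stellate and myofibroblast markers 6 were listed after TGF-β1, and of these only COL1A1, TAGLN and VIM were also listed in control. Among coding genes under 200 kb, 21.7% were listed after TGF-β1 and 20.8% in control. All 6 had more positions after TGF-β1 than in control, beside 51.2% of all listed genes. After TGF-β1 and in control, COL1A1 had 10 and 4, TAGLN 9 and 2, and VIM 6 and 3. ACTA2 and PDGFRB each had 2 and 0, and COL3A1 had 1 and 0, so these 3 rest on few positions. COL1A2, DES and LRAT were not listed in either table. None of the 4 hepatocyte, 3 cholangiocyte and 3 endothelial markers was listed, and of 3 macrophage markers only CD68 was, with 2 after TGF-β1 and 3 in control.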

How the data were processed

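LX-2 libraries, 2 treated with TGF-β1 and 2 untreated, were grouped by their labels. Tools named, per the submitters' processing notes, were featureCounts, STAR 2.7.6a and fastp 0.23.1, and the build was hg38. For the position caller, its filters and the pooling of replicates, the answer is not given in the sources used here. Each group has 1 table deposited by the authors, in which a position takes a line for every transcript. Per the file headers it holds a column named diff, a fraction of at least 0.01 in every line (printed in percent as the mismatch difference), and a p-value of the authors, under 0.05 in every line. Reads, depth and values per library are not in these columns, so the planned model per library was replaced by the planned descriptions without a test.

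Lines were merged to 1 per position and gene with pandas 2.3.3 in Python 3.11.15. Span was gene end minus gene start plus 1, and the end column was taken as the 1-based position. Shared positions have the same chromosome, base and strand. The 95% interval of a ratio was derived from the Wilson interval of the TGF-β1 share of both counts, made with scipy 1.17.1. Positions of a gene are not independent. RefSeq names matched 291 of 301 long genes. The counting was tested on simulated data.

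Members, the 10 gene lists (579 entries) and the rule for named genes were chosen with earlier results of these data known. The rule names the 12 largest gains and losses in positions, the 8 genes with most positions per table, the 8 largest differences each way at shared positions, the 6 highest values in 1 table only, the 8 longest genes and up to 4 genes per list. A few genes that it names are not reported here. Alternatives were spans, p and mismatch thresholds, list length and weights. The sequence around most positions was not analysed here.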

Additional observations from a re-analysis of the deposited data

How the results depend on the processing

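The ratio of listed positions in long genes, 0.682, stayed below 1 under all 15 alternative settings, between 0.453 and 0.927. Of 106 values recomputed, 74 moved little, 32 moved and 0 changed direction. With a longer limit of 300 kb the ratio was 0.495, 59.5% of genes were in control only and 25.4% in both, the shared median was 4.81 points, and the last of 5 parts held 42.2% after TGF-β1 and 42.7% in control. At 500 kb the ratio was 0.481, with 71.0% of genes fewer, 16.1% TGF-β1 only, 22.6% both and 61.3% control only, and a last part of 48% after TGF-β1 and 42.3% in control. At 100 kb the last part held 50.6% after TGF-β1 and 45.5% in control. With only the TGF-β1 positions of lowest p kept, as many as control had, the ratio was 0.453 (1.00 over all genes), with more in 16.7% and fewer in 75.3% of genes, 7.32% TGF-β1 only, 28.2% both and 64.5% control only. Under a p of 0.001 it was 0.811 (1.77 over all genes), with more in 32.5%, fewer in 58.4% and 15.8% TGF-β1 only. At a mismatch difference of 5% or more it was 0.817, with more in 33.3%. At 10% or more it was 0.927 (2.17 over all genes), with more in 42.7% and fewer in 51.9%. Shares of genes with more, fewer or in 1 table only were not computed over all genes at these settings. How much of their change is particular to long genes is therefore not known. Counting each gene once put the last part at 50.2% after TGF-β1. With every listed transcript of 200 kb or more, it was 48.4% in control. The settings by transcript span and without COL4A2 were chosen after seeing the data. The cause of these moves was not tested. No paired analysis was possible because each table pools its 2 libraries, which is also why no library could be left out in turn. Depth is unknown, so what it limits cannot be given.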
